A study of Mus musculus with 6 samples.

Results

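Axon guidance ligands and receptors were taken as the protein-coding genes of the deposited count table whose names mark them as semaphorins (Sema), plexins (Plxn), ephrins (Efna, Efnb), Eph receptors (Epha, Ephb), Slits, Robo receptors, netrins (Ntn, Ntng) or Unc5 receptors, together with *Nrp1*, *Nrp2*, *Dcc* and *Neo1*. By this rule 71 of the 54532 genes in the table were members, 36 of them ligands and 35 receptors. All were measured by bulk mRNA sequencing of mouse cerebellum at postnatal day 1 (P1), in 3 control and 3 mutant libraries. Controls were Cre-negative littermates of genotype *Tox3*f/f and mutants were *Nestin-cre;Tox3*f/f, so both groups carried 2 floxed alleles of *Tox3*, a gene for a nuclear regulator of transcription. The *Nestin-cre* transgene drives the recombinase Cre from *Nestin* regulatory sequence in neural progenitors, and deletes the floxed allele across the nervous system. Every mutant and no control carried it, and the effect of the transgene cannot be told apart from that of the deletion. The study used animals of both sexes, and the sources used here do not say whether each library came from 1 animal or from a pool.

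Read counts on genes summed to between 15391854 and 17178478 per library, and 3 counts corresponded to at most 0.196 CPM (counts per gene scaled to a common library total). *Tox3* itself had 64.2, 63.0 and 64.4 CPM in control 1, 2 and 3 and 55.3, 63.2 and 59.2 CPM in mutant 1, 2 and 3. Its groups overlapped, and because the sources used here do not say which exons Cre removes, a count over the whole gene does not check the labels. *Atoh1*, the transcription factor that marks granule neuron progenitors (GNPs), had between 30.9 and 32.6 CPM in controls and between 0.249 and 0.577 CPM in mutants. Genes that mark the hindbrain outside the cerebellum and the forebrain summed to at most 1.27 and 0.623 CPM in any library. Libraries control 2, control 3 and mutant 2 held *Xist* RNA, and control 1, mutant 1 and mutant 3 held RNA of the Y-linked gene *Ddx3y*, so each group had animals of both sexes in unequal numbers. Choroid plexus markers summed to between 128 and 195 CPM in controls but to 216, 33.3 and 766 CPM in mutant 1, 2 and 3. By the thresholds given below, 1 of these 5 markers fell in the mutants (log2 fold change −1.16). The other 4 lay above 0 and did not pass them.

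Guidance molecules steer growing axons and migrating neurons by attraction or repulsion. Semaphorins signal through plexins, with neuropilins as co-receptors for most secreted class 3 members. Ephrins are bound to the cell surface and signal through Eph receptor tyrosine kinases, Slits signal through Robo receptors, and the secreted netrins signal through Dcc, Neo1 and the Unc5 receptors. The membrane-anchored netrin-G proteins (*Ntng1*, *Ntng2*) bind other partners, of the Lrrc4 family. In the developing cerebellum, such cues are known for their part in the inward migration of granule neurons and in the proliferation of their progenitors. Netrin-1 and its receptors are also known for guiding the precursor neurons of the rhombic lip.

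For 61 of the 71 members, RefSeq (build GRCm38.p6) gave at least 1 promoter window of 250 bases before and 50 bases after a transcription start, and 10 members had no entry. The 250 bases before the start are shown for 4 called members, 2 of them a ligand and its receptor that both fell (*Sema7a* and *Plxnc1*), and 2 B plexins that moved in opposite directions. Capitals mark the E-box CAGCTG, a 6-base sequence of the CANNTG kind to which proteins of the Atoh1 family can bind. The *Sema7a* sequence is chr9:57939862-57940111 on the plus strand, *Plxnc1* is chr10:94944846-94945095 on the minus strand, *Plxnb2* is chr15:89180789-89181038 on the minus strand and *Plxnb3* is chrX:73756853-73757102 on the plus strand.
Sema7a: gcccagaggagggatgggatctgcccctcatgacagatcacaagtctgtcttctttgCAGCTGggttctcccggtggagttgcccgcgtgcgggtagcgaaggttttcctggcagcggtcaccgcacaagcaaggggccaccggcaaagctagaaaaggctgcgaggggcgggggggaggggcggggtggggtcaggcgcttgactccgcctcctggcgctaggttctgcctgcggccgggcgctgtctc
Plxnc1: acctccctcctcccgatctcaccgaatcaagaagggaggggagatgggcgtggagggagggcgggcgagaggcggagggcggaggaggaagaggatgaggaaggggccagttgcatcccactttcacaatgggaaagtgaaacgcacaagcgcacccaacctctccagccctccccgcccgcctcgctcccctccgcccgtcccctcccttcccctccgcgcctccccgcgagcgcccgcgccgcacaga
Plxnb2: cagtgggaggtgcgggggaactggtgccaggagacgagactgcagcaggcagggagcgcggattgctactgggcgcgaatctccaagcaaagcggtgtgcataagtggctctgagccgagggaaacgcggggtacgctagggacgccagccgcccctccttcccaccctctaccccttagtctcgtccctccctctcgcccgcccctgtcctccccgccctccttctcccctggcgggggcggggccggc
Plxnb3: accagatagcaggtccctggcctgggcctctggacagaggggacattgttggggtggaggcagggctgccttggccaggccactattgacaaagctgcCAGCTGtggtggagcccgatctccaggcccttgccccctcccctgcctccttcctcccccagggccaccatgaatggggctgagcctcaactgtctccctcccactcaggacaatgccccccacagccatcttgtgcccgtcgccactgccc
In *Sema7a* the motif began 193 bases before the start and in *Plxnb3* 152 bases before it. The *Plxnb3* window held another copy, which began at base 6 after the start. CAGCTG reads the same on both strands. It was present in 12 of the 77 windows of members (15.6%) and in 16.3% of 32851 windows of all genes. Of the windows of members that fell, 1 of 8 held it (*Sema7a*), and of those that rose, 2 of 4 (*Plxnb3*, and *Epha10* at 133 bases before the start). These are counts of windows and not of members. *Plxnb2* had 2 windows, of which that at the annotated gene start is shown. No window was given for *Sema6a*, which fell, or for *Sema3b* and *Plxna4*, which rose. A related E-box, CAGATG on either strand, was found in 7.79% of member windows and 17.2% of all windows. The general form CANNTG, which includes both, was found in 50.6% of member windows and 72.3% of all windows.

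In the mutants, 8 members fell and 6 rose. The largest falls were those of the laminin-binding netrin *Ntn4*, the semaphorin receptor *Plxnb2* and the netrin receptor *Unc5b*, and the largest rises were those of *Sema3b*, *Plxnb3* and *Epha10*. A gene was called when its adjusted p was under 0.01 (edgeR, quasi-likelihood test, adjusted by Benjamini-Hochberg over all tested genes) and its log2 fold change lay outside −0.5 to 0.5. Of the 71 members, 70 passed the filter on low counts and were tested, and 14 of these were called (20%), against 6.66% of the 17505 tested genes. Among all tested genes 3.63% fell and 3.03% rose (530 genes, or 349 without mutant 3). Adjusted p was under 0.01, whatever the fold, for 25 members (35.7%), 13 below and 12 above 0, against 13.8% of tested genes. In 42 of the 70 members (60.0%) the 3 mutant values lay all above or all below the 3 control values, against 40.5% of tested genes. The median log2 fold change was 0.02 over the tested members and −0.01 over all tested genes. In each of the 14 called members the groups did not overlap, which is no separate support because the calls rest on the same values. Only *Ntn5*, a netrin at 0.130, 0.195 and 0.321 CPM in controls and 0.173, 0.456 and 0.374 CPM in mutants, was too low to be tested.

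**Figure D1:**
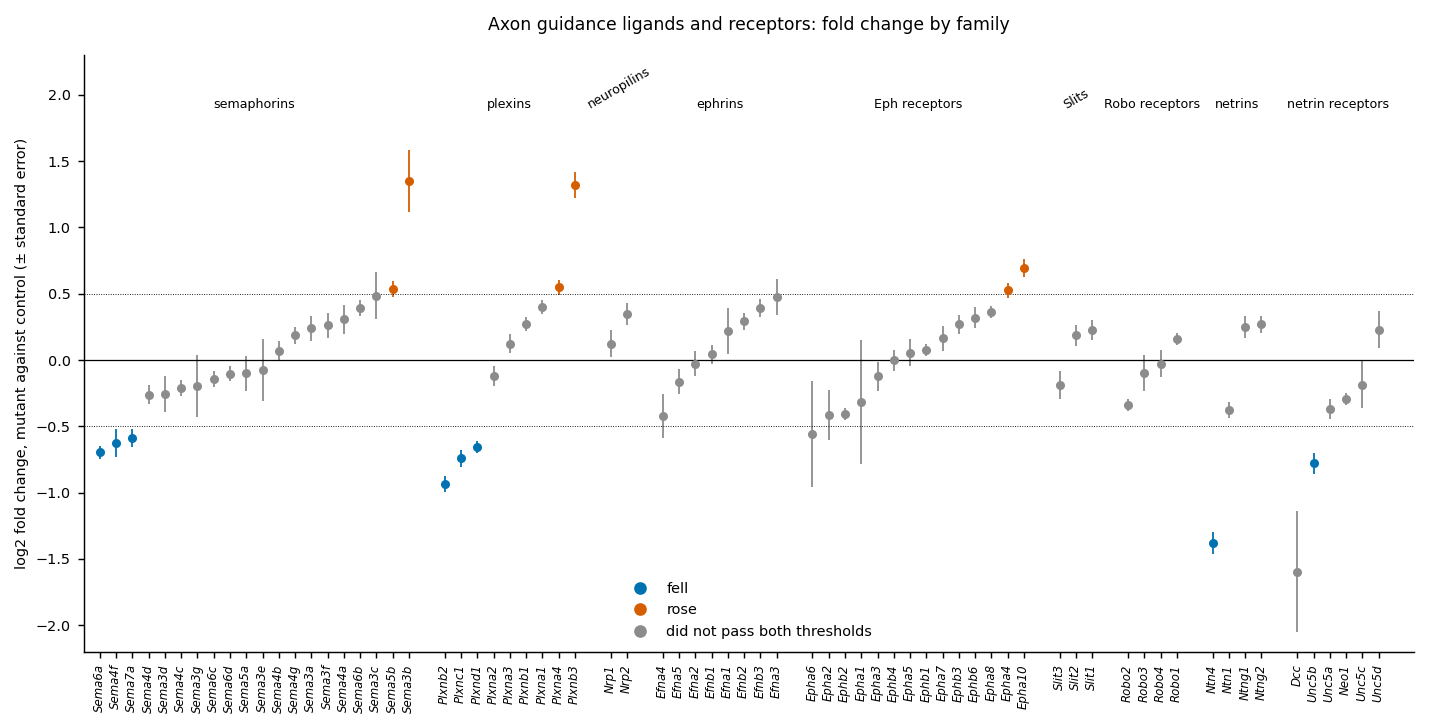
Log2 fold change of mutant against control (vertical axis) for the 70 tested members, grouped by family along the horizontal axis. Points are fitted values from 3 control and 3 mutant libraries, bars are standard errors, dotted lines mark 0.5 and -0.5, and blue and orange mark members that fell and rose. Changes in both directions are seen among semaphorins (3 fell, 2 rose) and plexins (3 fell, 2 rose), and *Dcc* at -1.60 has the widest bar of the members below -0.5.

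The tissue around these genes also differed between the groups. All 5 GNP markers (*Atoh1*, *Barhl1*, *Gli2*, *Mki67*, *Ccnd1*) fell, and their summed level was 948 to 1086 CPM in controls and 313 to 378 CPM in mutants. Of the granule neuron markers 4 of 6 fell, with sums of 3640 to 3730 and 2511 to 2701 CPM. The study found *Pax6*, which is on this list, in progenitors as well as granule neurons, so the list is not particular to granule neurons. In the study's sequencing of single nuclei, granule neuron numbers were comparable between control and mutant. Markers of Purkinje cells (4 of 6), GABAergic neurons (3 of 4, among *Pax2*, *Gad1*, *Gad2* and *Slc32a1*), astroglia (3 of 5) and the oligodendrocyte lineage (4 of 5) rose. The fifth oligodendrocyte lineage marker, *Pdgfra*, had a log2 fold change of −0.45 (adjusted p = 3.07e-04), inside the fold threshold. The sums of these 4 lists went from 958 to 1024 CPM in controls to 1430 to 1638 CPM in mutants, from 384 to 399 to 570 to 598, from 2698 to 2801 to 3696 to 4005 and from 447 to 479 to 570 to 606, in the same order. None of the 6 endothelial markers was called, and their sum was 347 to 387 CPM in controls and 337 to 352 CPM in mutants. Of the microglia markers 1 of 5 rose, with sums of 67.1 to 73.3 and 87.5 to 100 CPM. Meningeal markers were mixed, as 2 of 6 rose and none fell, while 3 lay below 0 and 3 above it. *Pdgfra*, given above at −0.45, is on this list too. The meningeal sums were 548 to 565 and 673 to 764 CPM. No marker of these lists was at 0 in any library. Their part in the results on the members was not tested, and in bulk tissue fewer cells of a type and less RNA per cell cannot be told apart.

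Among semaphorin ligands, 3 of 20 fell (*Sema6a*, *Sema4f*, *Sema7a*), 2 rose (*Sema5b*, *Sema3b*) and 15 were not called. *Sema7a* (chr9:57940112-57962865), a semaphorin tethered to the membrane by a lipid anchor, had 167, 146 and 153 CPM in control 1, 2 and 3 and 98.9, 99.8 and 112 CPM in mutant 1, 2 and 3. Every mutant was below every control, by 1.5-fold on average (log2 fold change −0.59, SE 0.068, adjusted p = 2.65e-04). *Sema6a*, a transmembrane ligand of *Plxna2* and *Plxna4* known for its role in granule cell migration, had 320.3, 323 and 293 CPM in controls and 193, 189.5 and 196 CPM in mutants. Its mutant values lay close together and well below the controls (log2 fold change −0.70, SE 0.05, adjusted p = 1.81e-05). *Sema4f* (chr6:82911885-82939769), a transmembrane class 4 semaphorin, had 69.7, 55.8 and 68.6 CPM in controls and 44.2, 36.6 and 44.9 CPM in mutants. In both groups library 2 was the lowest, and the groups did not overlap (log2 fold change −0.63, SE 0.11, adjusted p = 0.0022). The call of *Sema4f* was lost without control 3 (adjusted p = 0.0136) and in all 3 limma fits to FPKM, where the adjusted p was at most 0.0332.

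*Sema5b* (chr16:35541145-35664732), a transmembrane semaphorin with thrombospondin repeats, had 99.1, 88.3 and 97.8 CPM in controls and 144, 137 and 132 CPM in mutants. All mutants were above all controls (log2 fold change 0.54, SE 0.06, adjusted p = 2.27e-04), but without control 2 the log2 fold change was 0.49, inside the fold threshold. *Sema3b* (chr9:107597674-107609229), a secreted class 3 semaphorin, was low, with 3.06, 4.23 and 3.08 CPM in controls and 10.7, 6.13 and 9.59 CPM in mutants. Mutant 2 was the lowest of the mutants, although still above every control (log2 fold change 1.35, SE 0.23, adjusted p = 0.00248). The call of *Sema3b* was lost without control 1, control 3, mutant 1 or mutant 3, with adjusted p of 0.0108, 0.0151, 0.0116 and 0.012 and log2 fold changes between 1.18 and 1.28. The choroid plexus sum was also lowest in mutant 2. It was highest in control 1 and mutant 3, however, whereas *Sema3b* was highest in control 2 and mutant 1. The part of choroid plexus in this result was not tested. Mutant 2 was also the mutant that held *Xist*. The difference of mutant from control in log2(CPM + 0.5) was 0.687 among *Xist* libraries and 1.577 among *Ddx3y* libraries. By the mean over all 6 libraries, the semaphorin with the highest level per gene length was *Sema4g*, a partner of *Plxnb2*, at 39.7 ± 3.08 FPKM (fragments per kilobase of gene scaled by library depth, mean ± SD, n = 3) in controls and 45.4 ± 2.83 in mutants. In controls alone *Sema7a* was higher, at 46.8 ± 3.21 FPKM. The change of *Sema4g* was not called (log2 fold change 0.19, adjusted p = 0.0628). *Sema6b*, another class 6 ligand of A plexins, had an adjusted p of 0.0014 at a log2 fold change of 0.39, opposite in sign to *Sema6a* and inside the fold threshold. The remaining 13 semaphorins lay between −0.26 and 0.49 on the log2 scale.

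Plexins were the family with the largest share of called members, 5 of 9 (3 fell, 2 rose). *Plxnb2* (chr15:89155549-89180788), a receptor for class 4 semaphorins known for its role in GNP proliferation and migration, had 574, 554 and 547 CPM in controls and 313, 269 and 294 CPM in mutants. The highest mutant was far below the lowest control (log2 fold change −0.94, SE 0.06, adjusted p = 1.04e-05). Per gene length it was the most abundant member in controls, at 71.7 ± 1.76 FPKM (mean ± SD, n = 3), and was at 37.6 ± 3.05 FPKM in mutants. Summed over the 9 plexins, the level was 179 to 185 FPKM in controls and 144 to 156 FPKM in mutants. Without *Plxnb2* the sum was 108 to 111 FPKM and 109 to 117 FPKM, and the groups overlapped. *Plxnc1* (chr10:94790866-94944835), the plexin that binds Sema7a, had 109, 122 and 110.2 CPM in controls and 63.4, 71.3 and 69.0 CPM in mutants. Ligand and receptor were thus both lower in every mutant (for *Plxnc1* log2 fold change −0.74, SE 0.066, adjusted p = 5.91e-05). *Plxnd1* (chr6:115954811-115995005), the receptor of Sema3e and best known in blood vessels, had 151, 159 and 151 CPM in controls and 95.7, 98.2 and 98.4 CPM in mutants. Its values were tight in both groups (log2 fold change −0.66, SE 0.048, adjusted p = 1.87e-05). Of the 6 endothelial markers none was called, 5 lay below 0 and their log2 fold changes ran from −0.23 to 0.10; their part in this result was not tested. Its ligand *Sema3e* was low, between 2.02 and 2.63 CPM in all libraries.

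*Plxnb3* (chrX:73757090-73772514), a receptor for Sema5a, had 10.2, 11.5 and 9.70 CPM in controls and 25.4, 25.3 and 27.8 CPM in mutants. Each mutant was more than 2 times as high as the highest control (log2 fold change 1.32, SE 0.098, adjusted p = 2.26e-05). *Plxna4* (chr6:32144268-32588192), a receptor for class 6 semaphorins and, with neuropilins, for class 3 semaphorins, had 91.4, 84.8 and 86.5 CPM in controls and 129, 122 and 133 CPM in mutants. All mutants were higher (log2 fold change 0.55, SE 0.055, adjusted p = 1.24e-04), and the log2 fold change was 0.46 once a trend of each library with the genomic span of the genes was removed. The A plexin *Plxna1* and the Sema4d receptor *Plxnb1* had adjusted p of 7.53e-04 and 0.00442 at log2 fold changes of 0.40 and 0.27. The 2 other A plexins were not called and lay between −0.12 and 0.12. All 3 B plexins thus passed the p threshold, *Plxnb2* below 0 and the other two above it. Neither neuropilin was called. *Nrp2*, the more abundant, had 43.9, 52.3 and 49.8 CPM in controls and 65.9, 57.9 and 61.7 CPM in mutants, with every mutant above every control (log2 fold change 0.35, SE 0.082, adjusted p = 0.0122).

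**Figure D2:**
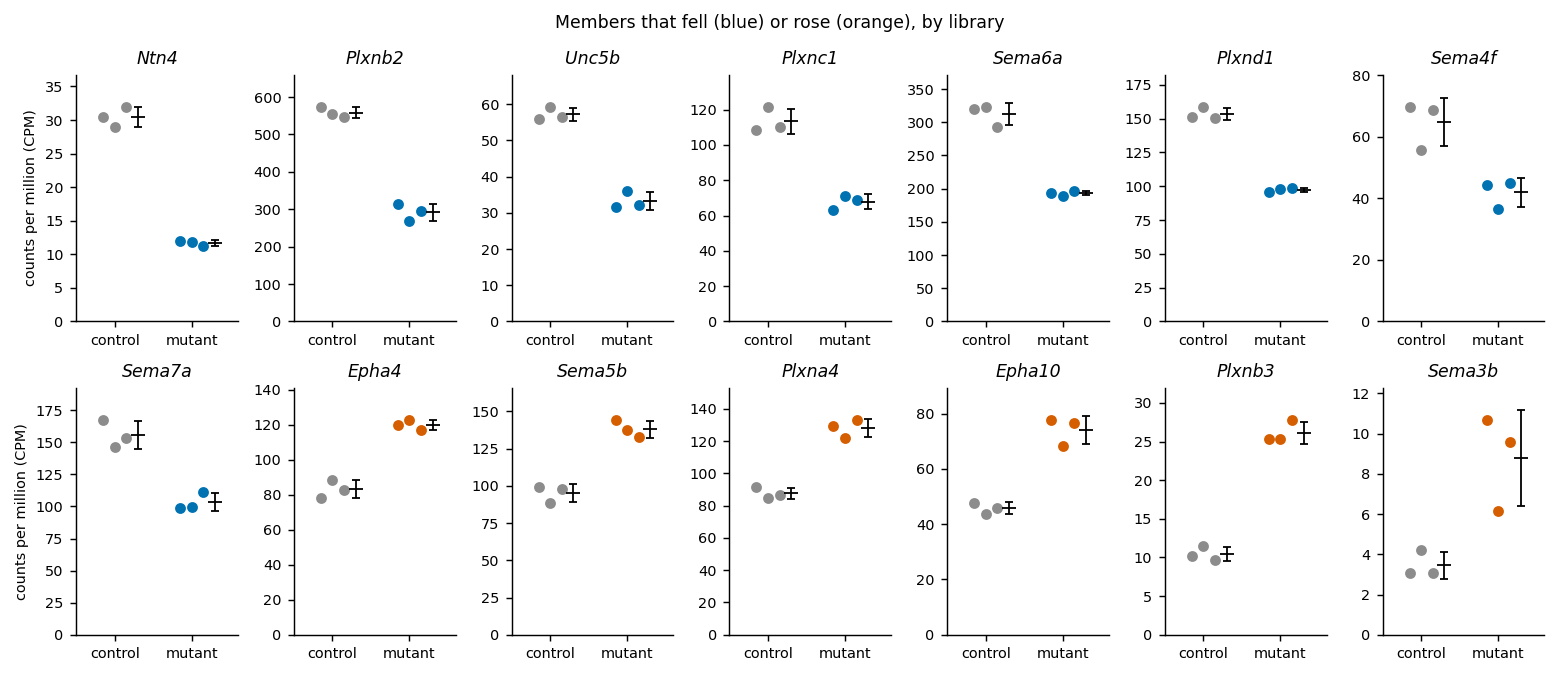
CPM (vertical axes, from 0) of the 14 called members in each library, with 3 control (grey) and 3 mutant libraries (blue for members that fell, orange for those that rose) in each panel. Black marks give mean and SD (n = 3). In no panel do the groups overlap, and *Sema3b*, with mutants between 6.13 and 10.7 CPM, has the widest relative spread.

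Of 4 tested netrins 1 fell (*Ntn4*), of 6 netrin receptors 1 fell (*Unc5b*), and no member of these families rose by the call. *Ntn4* (chr10:93640681-93747207), a netrin that binds laminins of the basement membrane, had 30.5, 29.0 and 32.0 CPM in controls and 12.1, 11.8 and 11.2 CPM in mutants. The mutants were 2.61-fold lower with little spread (log2 fold change −1.38, SE 0.085, adjusted p = 8.26e-06). The netrins summed to 32.2 to 33.7 FPKM in controls and 27.3 to 28.9 FPKM in mutants, and without *Ntn4* the sums of 24.2 to 25.2 and 24.2 to 25.9 FPKM overlapped. *Ntn1*, the classical netrin that attracts or repels axons, had 71.8, 77.0 and 75.3 CPM in controls and 55.2, 56.3 and 60.8 CPM in mutants. Although all mutants were lower at an adjusted p of 0.00174, its log2 fold change of −0.38 (SE 0.061) did not reach the fold threshold. *Ntng2*, a membrane-anchored netrin-G and the netrin with the highest mean level per length over all 6 libraries, was at 10.2 ± 0.265 FPKM in controls and 12.4 ± 0.381 FPKM in mutants (mean ± SD, n = 3), while *Ntn1* was higher in controls alone, at 11.8 ± 0.421 FPKM. *Ntng2* was not called (log2 fold change 0.27, adjusted p = 0.014), and a non-coding gene on the same strand within its span held 44.6% as many counts.

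*Unc5b* (chr10:60762593-60831581), a receptor through which netrins repel axons, had 55.8, 59.3 and 56.5 CPM in controls and 31.6, 36.2 and 32.2 CPM in mutants. The groups stood apart (log2 fold change −0.78, SE 0.076, adjusted p = 1.05e-04). *Neo1*, a receptor for netrins and repulsive guidance molecules and the second most abundant member per length in controls, had 472, 458 and 452 CPM in controls and 376, 383 and 367 CPM in mutants. It was lower in every mutant at an adjusted p of 0.00114, with a log2 fold change of −0.30 inside the threshold. *Unc5a* was similar, with a log2 fold change of −0.37 and an adjusted p of 0.00499. Summed over the 6 netrin receptors, the level was 99.3 to 115 FPKM in controls and 76.0 to 92.2 FPKM in mutants.

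*Dcc*, the receptor through which netrin-1 attracts axons, had the largest fitted fall of all members but was not called, and is described here because of its values. It had 61.7, 142 and 134 CPM in control 1, 2 and 3 and 19.8, 70.9 and 21.7 CPM in mutant 1, 2 and 3. Mutant 2 was above control 1, so the groups overlapped (log2 fold change −1.60, SE 0.46, adjusted p = 0.0288). Within each group the *Xist* libraries were the high ones. Between the mutant and the controls that held *Xist* the level was 1.95-fold lower, and between the mutants and the control that held *Ddx3y* it was 2.93-fold lower. With the level of Y-linked genes as a covariate the log2 fold change was −1.31 and the adjusted p 2.81e-07, and without mutant 2 these were −2.44 and 3.54e-04. Left out in turn, each of the other libraries gave a log2 fold change between −1.89 and −1.29 with no call. *Unc5c*, another netrin receptor with a known role in cerebellar development, had 275, 378 and 370.0 CPM in controls and 260.5, 399 and 241 CPM in mutants. Here too control 2, control 3 and mutant 2 were high, and the groups did not differ beyond their spread (log2 fold change −0.18, SE 0.18, adjusted p = 0.493). *Epha6* showed the same order, at 2.67, 6.18 and 5.78 CPM in controls and 1.79, 5.28 and 2.93 CPM in mutants. *Dcc* and *Epha6* were the longest genes among the tested members, with spans of 1092 and 952 kb. Over the 70 tested members, the difference between *Xist* and *Ddx3y* libraries, on the log2(CPM + 0.5) scale, had a Spearman correlation with genomic span of 0.50 in controls and 0.37 in mutants. Of the 16 members longer than 300 kb, 9 were above 0 in both groups. *Robo1*, the next longest at 738 kb, differed by −0.004 and 0.021. This is a description, since all members were measured in the same libraries, and the same relation over all tested genes was not computed. Sex and any other property that these libraries share cannot be told apart here. *Unc5c* and *Epha6* were chosen after their values were seen, as was *Dcc*.

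**Figure D3:**
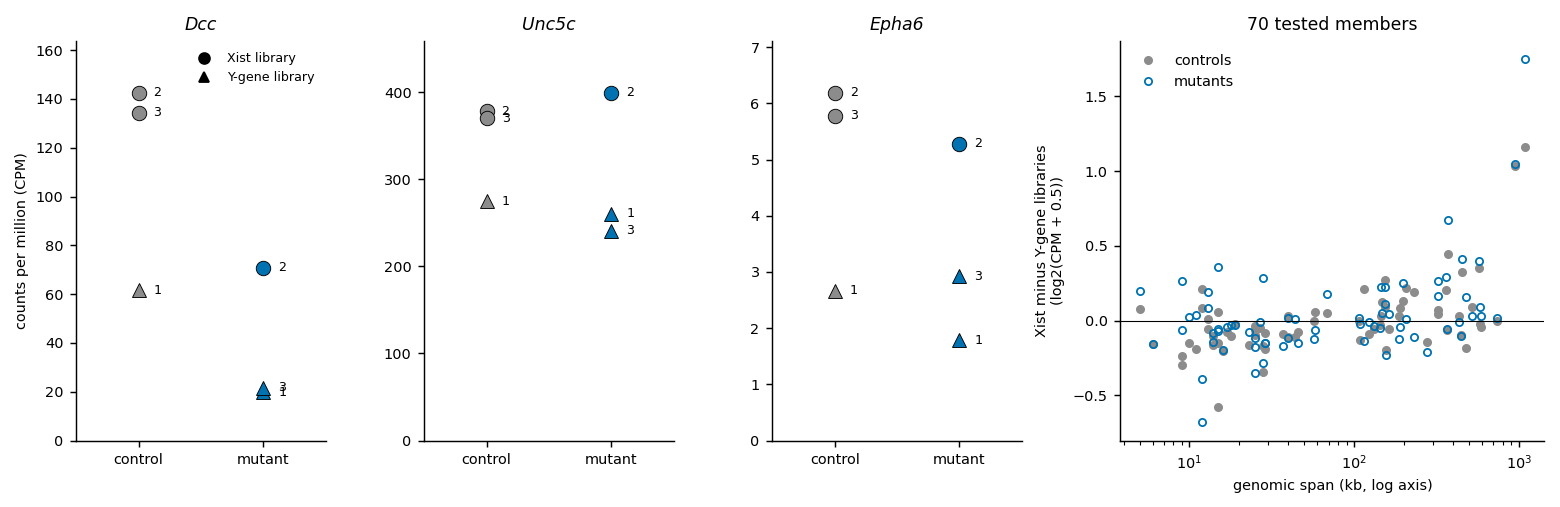
The left panels give CPM (vertical axes, from 0) of *Dcc*, *Unc5c* and *Epha6* in each library, with circles for libraries that held *Xist*, triangles for those that held *Ddx3y*, and the library number beside each point. The right panel gives the difference between these library sets for the 70 tested members on the log2(CPM + 0.5) scale against genomic span in kb (log axis), for controls (grey) and mutants (open blue). In both groups the circles lie above the triangles, and the longest members, *Dcc* and *Epha6*, show differences between 1.03 and 1.75, whereas other members over 300 kb lie on both sides of 0.

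Of the 14 Eph receptors, 2 rose, none fell and 12 were not called. *Epha4* (chr1:77367185-77515088), a receptor for ephrins of both classes, had 78.4, 88.6 and 82.5 CPM in controls and 119.9, 123 and 117 CPM in mutants. Every mutant was above every control (log2 fold change 0.53, SE 0.057, adjusted p = 1.98e-04), and without control 1 the log2 fold change was 0.49, inside the threshold. *Epha10* (chr4:124880899-124917800), an Eph receptor without an active kinase, had 47.8, 43.8 and 46.0 CPM in controls and 77.7, 68.4 and 76.5 CPM in mutants. The lowest mutant was above the highest control (log2 fold change 0.69, SE 0.07, adjusted p = 1.29e-04). *Epha8*, the Eph receptor with the highest level per length, was at 23.3 ± 0.487 FPKM in controls and 30.1 ± 0.375 FPKM in mutants (mean ± SD, n = 3). It had an adjusted p of 4.65e-04 at a log2 fold change of 0.36. *Ephb2*, which binds B ephrins, went the other way, with an adjusted p of 3.18e-04 at −0.41. The ephrin ligands had no called member. *Efnb3*, the most abundant ephrin, had 103, 92.7 and 91.9 CPM in controls and 133, 117 and 127 CPM in mutants, all mutants being higher (log2 fold change 0.39, adjusted p = 0.00205). For *Efnb2* the log2 fold change was 0.29 and the adjusted p 0.00903. Both values lay inside the fold threshold. The 5 A ephrins had adjusted p of at least 0.0277.

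No Slit and no Robo receptor was called. *Robo2*, a Slit receptor and the most abundant of its family, had 226, 243 and 237 CPM in controls and 180.1, 188 and 189 CPM in mutants. It was lower in every mutant at an adjusted p of 7.12e-04, with a log2 fold change of −0.34 (SE 0.047) inside the threshold. *Slit1* was the most abundant Slit, at 5.01 ± 0.149 FPKM in controls and 5.88 ± 0.196 FPKM in mutants (mean ± SD, n = 3), and its log2 fold change was 0.23 (adjusted p = 0.0475). The remaining Slits and Robo receptors lay between −0.19 and 0.19 on the log2 scale.

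By family, the median log2 fold change over tested members was −0.09 in semaphorins, 0.12 in plexins, 0.24 in neuropilins, 0.13 in ephrins, 0.07 in Eph receptors, 0.19 in Slits, −0.06 in Robo receptors, −0.07 in netrins and −0.33 in netrin receptors. By role, 4 ligands fell and 2 rose among 35 tested, and 4 receptors fell and 4 rose among 35. Levels spanned a wide range per gene length. A mean over the 6 libraries of at least 1 FPKM was reached by 66 tested members and of at least 10 FPKM by 29.

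**Figure D4:**
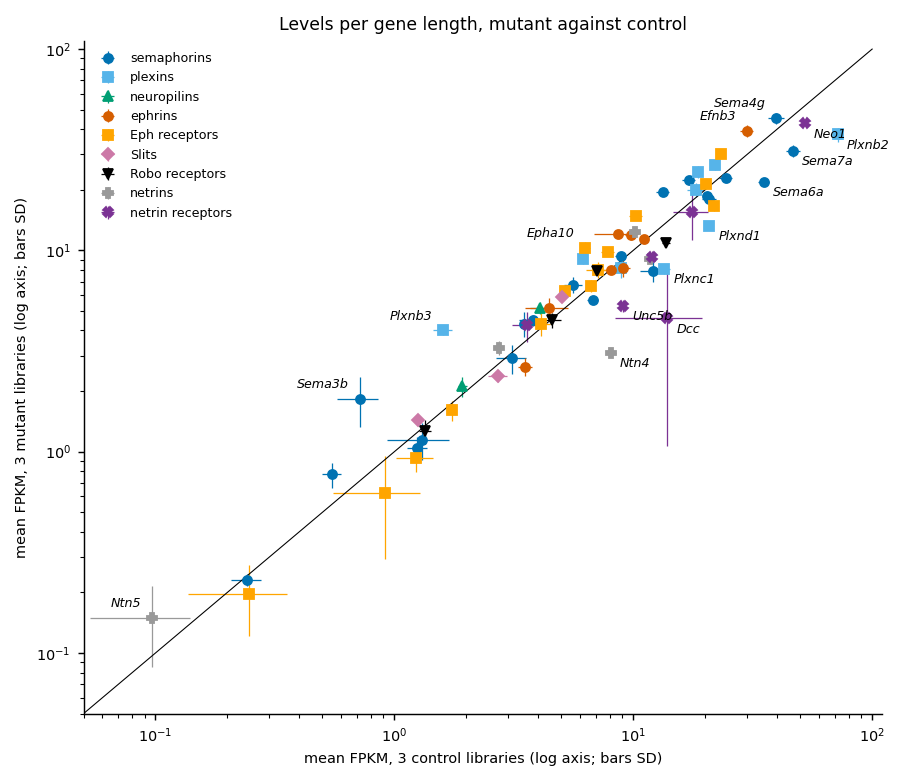
Mean FPKM of each of the 71 members in the 3 control libraries (horizontal log axis) against the 3 mutant libraries (vertical log axis), with SD bars and the line of equal levels. Symbols mark families. *Plxnb2*, the most abundant member in controls at 71.7 ± 1.76 FPKM, *Ntn4* and *Dcc* lie below the line, and *Sema3b* and *Plxnb3* above it.

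Genes that act beside or below these receptors were also counted. Of 54 such genes (among them collapsin response mediators, kinases, adaptors and co-ligands), 1 rose (1.85%) and none fell, where 6.66% of all tested genes were called. *Flrt1*, whose family binds Unc5 receptors, had 13.2, 15.3 and 12.1 CPM in controls and 19.1, 18.2 and 20.5 CPM in mutants (log2 fold change 0.51, SE 0.11, adjusted p = 0.00726). Its call was lost without mutant 3 and in all 3 fits to FPKM. Whatever the fold, 16 of the 54 (29.6%) had an adjusted p under 0.01, against 13.8% of all tested genes. Of these, 15 lay inside the fold threshold, 9 above and 6 below 0. Among them, named after their values were seen, were *Rgma*, a ligand of Neo1, with 269, 247 and 244 CPM in controls and 329, 354 and 368 CPM in mutants (log2 fold change 0.47, adjusted p = 4.04e-04), and *Draxin*, a secreted ligand of Dcc, with 217, 207 and 201 and 155, 166 and 156 CPM (log2 fold change −0.39, adjusted p = 4.67e-04). The median over the 54 genes was 0.03.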

How the data were processed

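Poly-A mRNA of 6 mouse cerebellum samples at postnatal day 1 was sequenced as paired-end reads. The deposited table holds raw counts per gene, for which the authors removed adapter, poly-N and low-quality reads, aligned the rest to mm10 with HISAT2 2.0.5 and counted them with featureCounts 1.5.0-p3 (submitters' processing notes). Annotation release, strandedness and treatment of multi-mapping reads are not given in the sources used here, so overlapping genes may share reads. A second deposited table holds FPKM values, which the authors computed from counts and gene length.

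From the counts, fold changes and tests were computed with edgeR 4.0.16 in R 4.3.3 (filterByExpr, TMM, glmQLFit, glmQLFTest), with p-values adjusted over all 17505 tested genes, which held 99.8% of counts. CPM values are scaled by TMM. FPKM was used for levels and, with limma-trend 3.58.1 on log2(FPKM + 1) or log2(FPKM + 0.1) at a mean of at least 0.5 FPKM, as an alternative. The common dispersion was 0.0105. With 3 libraries against 3, the smallest p of an exact permutation test is 0.1. The p-values reported are those of the fit across genes and measure only the spread between these libraries. Same-group libraries differed by more than sampling noise (chi-square per gene 3.66 to 10.2). The members, gene lists and tests were chosen with earlier results of these data known. Named were all called members, the highest member of each family by mean FPKM, *Ntn1* and *Sema7a* (which the study names), members past the p threshold alone, called pathway genes, and *Tox3* and *Atoh1*. Promoter windows came from RefSeq (GRCm38.p6), the build of the deposited gene coordinates. Alternatives were DESeq2 1.42.0, other scalings, filters and thresholds, a block for the replicate number, the summed level of Y-linked genes as a covariate, each library left out in turn and, added after seeing the data, removal of a trend with genomic span. Fits were tested on simulated counts that had the common dispersion for every gene and no differences between library sets. That test therefore does not cover genes such as *Dcc*.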

Additional observations from a re-analysis of the deposited data

How the results depend on the processing

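Of 510 values of 30 named members (17 alternatives each), 488 kept their direction and side of the threshold, 18 lost a call, 4 gained one and none reversed. The 4 gained were all of *Dcc*, without a filter on low counts (adjusted p 1.16e-23), with the replicate block, with Y-linked genes as a covariate and without mutant 2. The unfiltered fit used the same *Dcc* counts, in which mutant 2 (70.9 CPM) lay above control 1 (61.7 CPM), but held 32263 genes against 17505. Its adjusted p values were also far smaller for other members, such as *Ntn4* (1.17e-22 against 8.27e-06). The cause was not tested, and 1.16e-23 is not read as stronger evidence than the main 0.0288. Leaving out 1 library gave 7 to 9 lower and 4 to 6 higher members, 492 to 778 lower and 349 to 569 higher genes overall (349 without mutant 3), and 0 to 1 lower and 0 to 2 higher pathway genes. limma-trend on log2(FPKM + 1) called 3 higher members, with or without a filter on low values, losing *Epha4*, *Plxna4* and *Sema3b*, and also lost *Sema4f* among the lower members. On log2(FPKM + 0.1) *Sema3b* and *Sema4f* were lost. Over all genes it called 391 lower and 283 higher (286 and 176 without the filter), and 343 higher on log2(FPKM + 0.1). No pathway gene was higher in these 3 fits. At adjusted p under 0.05 with no fold threshold, 16 members were lower and 19 higher, 2252 and 2136 of all genes, and 10 and 11 pathway genes. With the fold tested against 0.5 itself, 2 members were lower and 1 higher, 145 and 30 of all genes, and 0 pathway genes. Whether the replicate numbers pair the libraries could not be settled. Deviations of same-numbered libraries correlated at 0.29, 0.33 and −0.17, and not every sample correlated best with its own number. Correlations were above 0 (0.232 to 0.327) only between a control and a mutant that both held *Xist* or both held *Ddx3y*. Replicates 1 and 2 match in this respect, so the replicate block partly overlaps with the Y-linked covariate. With the number as a replicate block 9 members were lower and 6 higher, of 696 and 561 genes, the added member being *Dcc* at −1.71 (adjusted p 5.83e-04), with no other call changed among the named members.

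Family medians, which had no test, moved by more than the spread between libraries in 29 of 153 values. The Eph receptor median was 0.085 with library size alone, 0.084 with 10 counts required in every library, 0.103 with the Y-linked covariate, 0.081 on log2(FPKM + 1), 0.084 on log2(FPKM + 0.1) and 0.003 with the genomic span trend removed, an alternative chosen after seeing the data. With the Y-linked covariate the plexin median was 0.069 and the semaphorin median −0.028. The Robo median was −0.035 and the Slit median 0.109 on log2(FPKM + 1), with or without a filter. With the span trend removed the netrin median was −0.123 and the Slit median 0.113. Leaving out 1 library gave medians of 0.047 to 0.107 for Eph receptors, 0.039 to 0.192 for ephrins, −0.118 to −0.038 for netrins, 0.082 to 0.196 for plexins, −0.087 to −0.014 for Robo receptors, −0.103 to 0.051 for semaphorins (above 0 without control 3) and 0.138 to 0.229 for Slits. The cause of these changes was not tested. The pathway genes' alternatives were also chosen after seeing the data. Genes at a few CPM, such as *Sema3b*, are the least precise at this depth.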

Other observations

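Reads of genes that overlap a member can have been shared, since the strand setting is not known. Of the 14 called members, *Epha10* had the largest such overlap, an antisense gene with 2.97% as many counts. Among members that were not called, genes within the span of *Efna4*, *Epha5* and *Sema4c* held 25.5%, 20.2% and 10.4% as many counts, and *Zyx*, which overlaps *Epha1* on the other strand, held 9210%. The values of *Epha1*, at most 1.37 CPM in any library, are therefore uncertain.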
